A study of Mus musculus with 2 samples.

Results

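Heme is the iron-bearing pigment that carries oxygen in hemoglobin and electrons in cytochromes and peroxidases. The genes described here are 9 enzymes that make heme or act on its breakdown product: Alas1, Alas2, Alad, Uros, Urod, Cpox, Ppox and Fech for synthesis, and Blvrb for breakdown. The list was selected on earlier results of these same libraries, and every level and every ratio between the libraries counts as used in that choice, so both are given as descriptions, with no test. Each symbol had a single gene identifier, all 9 were found, and they stand among 55536 annotated genes. The data are total RNA sequencing of primary cells labelled neutrophil, with spleen named in the description, from male B6CASTF1/J mice aged 59 days, a hybrid strain whose mothers were C57BL/6 and whose fathers were CAST Eij. There was 1 group of 2 libraries, biological replicates 1 and 2, each made from an RNA input of 300 ng to which ERCC controls were added, and no treatment, genotype contrast or other cell type was labelled. Both libraries carry the same donor label under separate biosample labels, and whether different mice gave them is not stated, so their spread may be technical.

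Synthesis starts in the mitochondrion, where aminolevulinate synthase joins glycine to succinyl-CoA. Alas1 encodes that enzyme in most tissues and Alas2 encodes it in developing red cells. The middle steps run in the cytosol, where aminolevulinate dehydratase (Alad), uroporphyrinogen III synthase (Uros) and uroporphyrinogen decarboxylase (Urod) take part in building and trimming the porphyrin ring. Coproporphyrinogen oxidase (Cpox), protoporphyrinogen oxidase (Ppox) and ferrochelatase (Fech), which inserts the iron, finish the molecule in the mitochondrion. In breakdown, heme oxygenase opens the ring to biliverdin, which is then reduced to bilirubin. Blvrb encodes biliverdin reductase B, also known as flavin reductase and abundant in red cells. In granulocytes, heme is the cofactor of myeloperoxidase and of the cytochrome of the NADPH oxidase.

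Replicate 1 comprised 18836093 estimated reads and replicate 2 comprised 18444369, and the 9 genes took 4573 and 6517 of them. Levels are given as TPM, a share of all transcripts that divides reads by transcript length. Neutrophil markers were abundant: the 11 listed summed to 66828 and 63340 TPM, with ratios of replicate 2 over replicate 1 between 0.827 and 1.09. The ratio of the libraries is that of reads for each library's total of annotated genes other than ribosomal RNA genes, with 0.5 reads added to each count, and its exact Clopper-Pearson interval at 95% covers counting error only.

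All 9 genes were expressed, reaching 1 TPM in both libraries, as did 46.4% of the 22028 annotated protein-coding genes. Alas1 was the highest at 92.1 ± 12.3 TPM (SD, n = 2), at the 92.5th percentile of the 10474 protein-coding genes with a mean of at least 1 TPM. Ppox followed at 30.5 ± 1.22 TPM, then Blvrb at 23.5 ± 13.3, Urod at 22.3 ± 3.46, Fech at 18.5 ± 3.73, Cpox at 13.2 ± 8.13, Alad at 10.9 ± 7.49, Alas2 at 6.74 ± 1.13 and Uros at 4.61 ± 1.66 TPM (all SD, n = 2). The library values of Alas1 did not overlap those of Ppox, and those of Alas2 did not overlap those of Uros, whose highest value of 5.78 TPM lay just under the 5.94 TPM of Alas2 in replicate 1. Every other neighbour in this order, from Ppox down to Alas2, overlapped the next, so those ranks are not separated by the spread of the libraries. In the second transcript table Uros (7.19 TPM) stood above Alas2 (6.98 TPM) in replicate 2, so the lowest pair is not separated there either. The median of expressed protein-coding genes was 13.1 TPM, close to the level of Cpox.

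**Figure D1:**
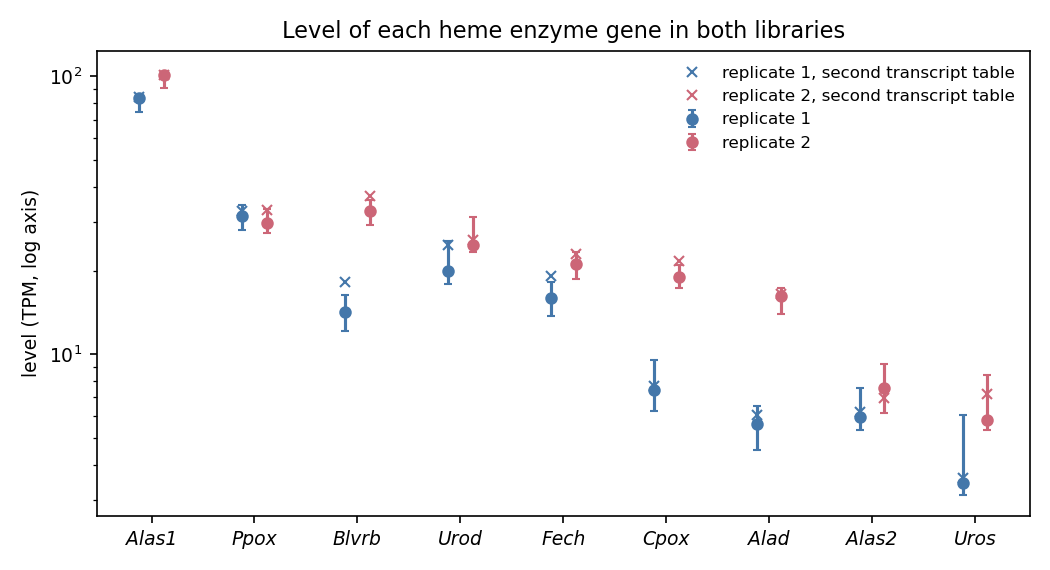
Level of each gene (TPM, log axis) in replicate 1 and replicate 2, ordered by mean level. Points are the deposited gene levels, bars the deposited credibility bounds of the estimator, and crosses the gene sums of the second transcript table. Alas1 stands apart at 83.4 and 101 TPM, and Cpox, Alad and Blvrb show the widest gaps between libraries.

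Of the genes for the first step, Alas1 had more reads than Alas2 over all its annotated transcripts. Alas1 (ENSMUSG00000032786.16, chromosome 9, 106233455 to 106248654 on mm10, minus strand) had 1581 reads and 83.4 TPM in replicate 1, and 1890 reads and 101 TPM in replicate 2. The ratio of the libraries was 1.23 (interval 1.15 to 1.31), so replicate 2 was the higher. Alas2 (ENSMUSG00000025270.13, chromosome X, 150547375 to 150570638, plus strand) had 212 reads and 5.94 TPM in replicate 1, against 208 reads and 7.54 TPM in replicate 2. By reads its ratio was 1.01 (interval 0.827 to 1.22), which leaves no direction, and the rise in TPM of 1.27-fold came with an effective length that the estimator set at 1884 bases in replicate 1 and 1509 in replicate 2. Alas2 made up 6.65% of the summed TPM of the pair in replicate 1 and 6.96% in replicate 2, and 11.8% and 9.91% of their reads. Alas2 lies wholly inside the span of Apex2, a gene on the opposite strand that stood at 4.28 and 4.10 TPM. The library kit was directional, per the labels, so reads of the pair can be told apart by strand only as far as the authors' counting used it.

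Much of the level of Alas1 came from a short model and from noncoding models. Of its 13 annotated transcripts, Alas1-211, a coding model of only 460 bases, took 18.2% of the reads in replicate 1 and 16.7% in replicate 2, yet 50.6% and 47.6% of the TPM. The most reads went to Alas1-206, a processed transcript with no annotated coding sequence, with 54.5% and 54.1%. Protein-coding models together held 24.2% and 22.6% of reads in the main tables and 33.4% and 31.6% in the second. Most reads of Alas1 thus lay on models other than protein-coding ones in both libraries and both tables. On protein-coding models alone Alas1 had 383 and 426 reads and Alas2 had 211 and 192, which put Alas2 at 35.5% and 31.1% of the pair's coding reads. The second table put that share at 28.2% and 25.8%. Without the short Alas1-211, the coding reads of Alas1 were 95.5 and 110.5 in the main table, below those of Alas2, and 402 and 405 in the second, above its 222 and 215. Which of the genes gave more full coding transcripts is therefore not settled by these tables.

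Alas2 reads were split between transcripts that differ inside the coding sequence. Alas2-201 and Alas2-202 share their exons except at both ends of the gene and at exon 3, where Alas2-201 keeps 45 further bases (chrX:150552959-150553003, mm10, plus strand), a length divisible by 3. The segment is shown because it is the coding difference between these transcripts. It is printed in capitals, with 12 bases of the same mRNA on each side, copied from the GENCODE M21 transcript.

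Alas2-201 exon 3 segment: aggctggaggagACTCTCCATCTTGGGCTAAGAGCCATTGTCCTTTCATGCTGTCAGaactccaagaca

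Alas2-201 took 195 of the 212 reads in replicate 1 and 105 of the 208 in replicate 2, whereas Alas2-202 took 16.3 and 86.7. As shares of the gene's TPM, Alas2-201 went from 89.3% to 39.5% and Alas2-202 from 8.06% to 35.1%. A further model, Alas2-204, a processed transcript of 569 bases, went from 0% to 20.7%, on 0 and 13.4 reads. Coding models together stood at 5.79 and 5.63 TPM. The change in shares was therefore not only an exchange between Alas2-201 and Alas2-202. The second transcript table put Alas2-201 at 222 and 151 reads and Alas2-202 at 0.0865 and 63.9 reads, the same direction. The deposited credibility bounds of the libraries overlapped, however, at 2.88 to 5.80 against 1.87 to 4.06 TPM for Alas2-201 and 0.000759 to 2.55 against 1.35 to 3.71 TPM for Alas2-202. Overlap of the bounds does not by itself place the difference within error. The Alas2-201 level of 5.31 TPM in replicate 1 lay outside the bounds of replicate 2, while its 2.98 TPM in replicate 2 lay inside those of replicate 1. For Alas2-202, at 0.48 and 2.65 TPM, each level lay outside the other library's bounds. Whether the isoform difference exceeds the uncertainty of the estimate at 212 and 208 reads was not tested.

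Among the cytosolic enzymes Alad differed most between the libraries. Alad (ENSMUSG00000028393.10, chromosome 4, 62509169 to 62519918, minus strand) had 117 reads and 5.59 TPM in replicate 1, and 331 reads and 16.2 TPM in replicate 2. The ratio was 2.89 (interval 2.34 to 3.61), and the deposited credibility bounds of its level, 4.53 to 6.50 and 13.9 to 17.3 TPM, did not overlap. The coding models Alad-201 and Alad-202 differ only in their first exon, and the transcript tables divided the reads between them differently. The main table placed 117 and 320 reads on Alad-201 and 0 on Alad-202. The second table placed 93.7 and 0 reads on Alad-201, and 23.9 and 332 on Alad-202. The ratio of the gene sum ranged from 2.74 to 2.94 over all settings tried, while the choice of first exon is not settled by these tables.

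Uros and Urod, the enzymes that close and then trim the ring, differed less. Uros (ENSMUSG00000030979.13, chromosome 7, 133686243 to 133710072, minus strand) had 72 reads and 3.43 TPM in replicate 1, and 137 reads and 5.78 TPM in replicate 2, a ratio of 1.95 with a wide interval of 1.46 to 2.63. It is the lowest of the 9 genes, and retained-intron transcripts held 31.0% of its reads in replicate 1 and 21.01% in replicate 2, in a single model. Urod (ENSMUSG00000028684.14, chromosome 4, 116989965 to 116994413, minus strand) had 379 reads and 19.9 TPM against 508 reads and 24.8 TPM, a ratio of 1.37 (interval 1.20 to 1.57). For both genes replicate 2 was higher in reads, but the credibility bounds of the TPM levels overlapped. Coding models held 77.6% of Urod reads in replicate 1 and 82.8% in replicate 2, and 5 of the 7 annotated retained-intron models held the rest.

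Of the mitochondrial enzymes that finish heme, Cpox differed about as much as Alad. Cpox (ENSMUSG00000022742.6, chromosome 16, 58670292 to 58717636, plus strand) had 341 reads and 7.43 TPM in replicate 1, and 971 reads and 18.9 TPM in replicate 2. The ratio was 2.92 by reads (interval 2.58 to 3.31) and 2.55 by TPM. Nearly all of those reads lay on the full-length coding model Cpox-201, with 95.8% and 92.7%, at 327 against 900.01 reads. In the second table the coding model held 81.6% in each library, and the retained-intron model Cpox-205 held most of the remainder, with 67.2 and 161 reads. The difference between libraries was thus present in coding transcripts in both tables, with coding ratios of 2.82 and 2.67. It was not confined to them, as retained-intron models held 4.20% and 7.31% of reads in the main table.

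Ppox showed the smallest departure from equal TPM. Ppox (ENSMUSG00000062729.11, chromosome 1, 171275990 to 171281186, minus strand) had 1114 reads and 31.4 TPM in replicate 1, and 1209 reads and 29.7 TPM in replicate 2. Its ratio was 1.11 by reads (interval 1.03 to 1.21) and 0.945 by TPM, so its direction depends on the quantity. Ppox was also the gene with the highest share on retained-intron models: 5 retained-intron models held 65.7% and 70.6% of its reads, or 72.7% and 76.8% in the second table. The coding model Ppox-201 held 382 and 356 reads, which gave 11.7 and 11.3 TPM. The gene overlaps 907 bases of B4galt3 on the opposite strand, which stood at 60.7 and 50.9 TPM, and Uros overlaps 740 bases of Bccip in the same way, so both levels assume that the authors' counting used strand. On coding models alone Ppox lay below Blvrb, which had 13.6 and 32.2 TPM on its own, in both libraries.

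Fech (ENSMUSG00000024588.9, chromosome 18, 64452914 to 64490251, minus strand) had 535 reads and 15.9 TPM in replicate 1, and 781 reads and 21.2 TPM in replicate 2. The ratio was 1.497 (interval 1.34 to 1.67), and the credibility bounds of its level, 13.7 to 18.2 and 18.7 to 23.4 TPM, lay just apart. Coding transcripts held 59.2% of reads in replicate 1 and 71.0% in replicate 2, and models marked for nonsense-mediated decay, a pathway that removes mRNA with an early stop, held 21.9% and 7.65%. In the second table those decay models held 9.61% and 4.41%. Coding reads alone gave a ratio of 1.79, or 1.47 in the second table, which placed 459 and 524 reads on the long coding model Fech-208 where the main table placed 105 and 177. The second table also gave the whole gene more reads, 799 and 1052, with 19.1 and 22.9 TPM. Both the transcript makeup and the level of Fech thus differ between the tables.

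**Figure D2:**
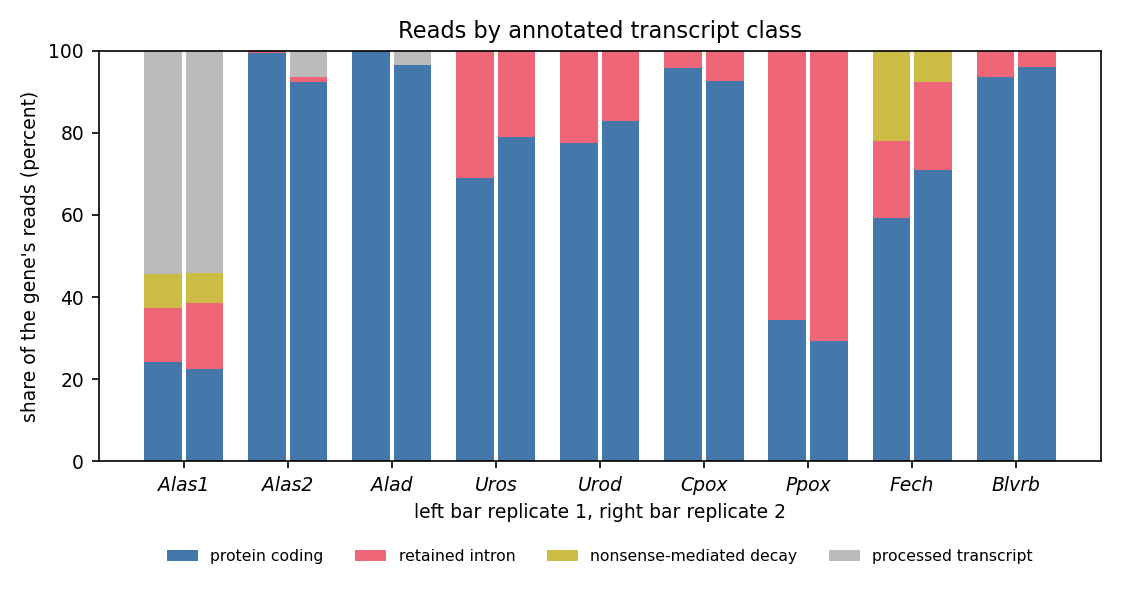
Share of each gene's reads (percent) by annotated transcript class, replicate 1 on the left and replicate 2 on the right of each pair. Ppox is mostly retained intron (65.7% and 70.6%) and Alas1 mostly processed transcript (54.5% and 54.1%), while Alad, Alas2, Cpox and Blvrb are over 92% protein coding in both libraries. By TPM the coding share was lower for Alas2 in replicate 2 (74.7%) and for Cpox (77.5% and 86.8%).

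Blvrb, the breakdown enzyme, stood at 14.1 TPM in replicate 1 and 32.9 TPM in replicate 2. It lies on chromosome 7 (ENSMUSG00000040466.16, 27447978 to 27466144, plus strand), and its 222 and 482 reads gave a ratio of 2.22 (interval 1.90 to 2.62). The median of the 8 synthesis genes was 11.7 and 20.1 TPM, so Blvrb was above it by 0.28 and 0.71 on the log2 scale, 0.50 ± 0.31 (SD, n = 2). Against the mean of the synthesis genes, which Alas1 raises, Blvrb was below it, at -0.19. The gene has transcripts from separate starts. Blvrb-201, which begins at the upstream start, had 86.8 and 223 reads. Blvrb-202, which begins downstream at 27452418 and has a shorter coding sequence, had 63.2 and 181 reads. Both were higher in replicate 2 with credibility bounds apart (2.01 to 7.70 against 8.05 to 16.2 TPM, and 1.51 to 7.82 against 9.32 to 19.3 TPM). The third coding model, Blvrb-203, was level at 54.8 and 48.2 reads, with 3.40 and 3.10 TPM.

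**Figure D3:**
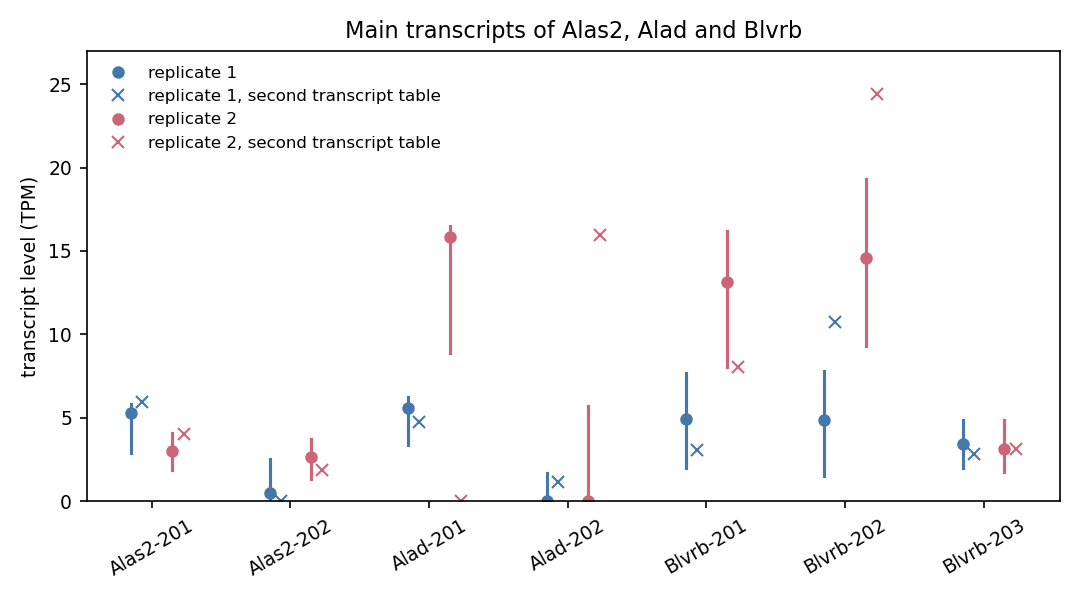
Level (TPM) of the main transcripts of Alas2, Alad and Blvrb in each library. Points and bars are the deposited transcript level and its credibility bounds, and crosses are the second transcript table. Blvrb-201 and Blvrb-202 are higher in replicate 2 in both tables, and the tables place Alad in replicate 2 on different models (320 reads on Alad-201 against 332 on Alad-202).

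Side by side, 3 of the 9 genes were past 2-fold, all higher in replicate 2: Cpox at 2.92, Alad at 2.89 and Blvrb at 2.22. Over all 12434 genes with at least 50 reads in sum, 1.58% were higher in replicate 2 past 2-fold and 0.692% lower, which makes 2.28% in either direction. At 1.5-fold Uros joined them at 1.95, making 4 of 9, against 4.11% of all genes higher and 2.89% lower. The interval of Uros reaches past 2 and that of Blvrb reaches under it, so the boundary between them is not resolved by their counts. The genes under 1.5-fold were Fech (1.497, or 1.504 with TMM factors, which made it 5 of 9), Urod (1.37), Alas1 (1.23), Ppox (1.11) and Alas2 (1.01). The median log2 ratio of the 9 was 0.58, and that of all 12434 genes was 0.00. Because the genes were listed with these ratios known, the counts describe them and nothing is read from their excess over all genes. The comparison is of library with library, not of conditions.

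**Figure D4:**
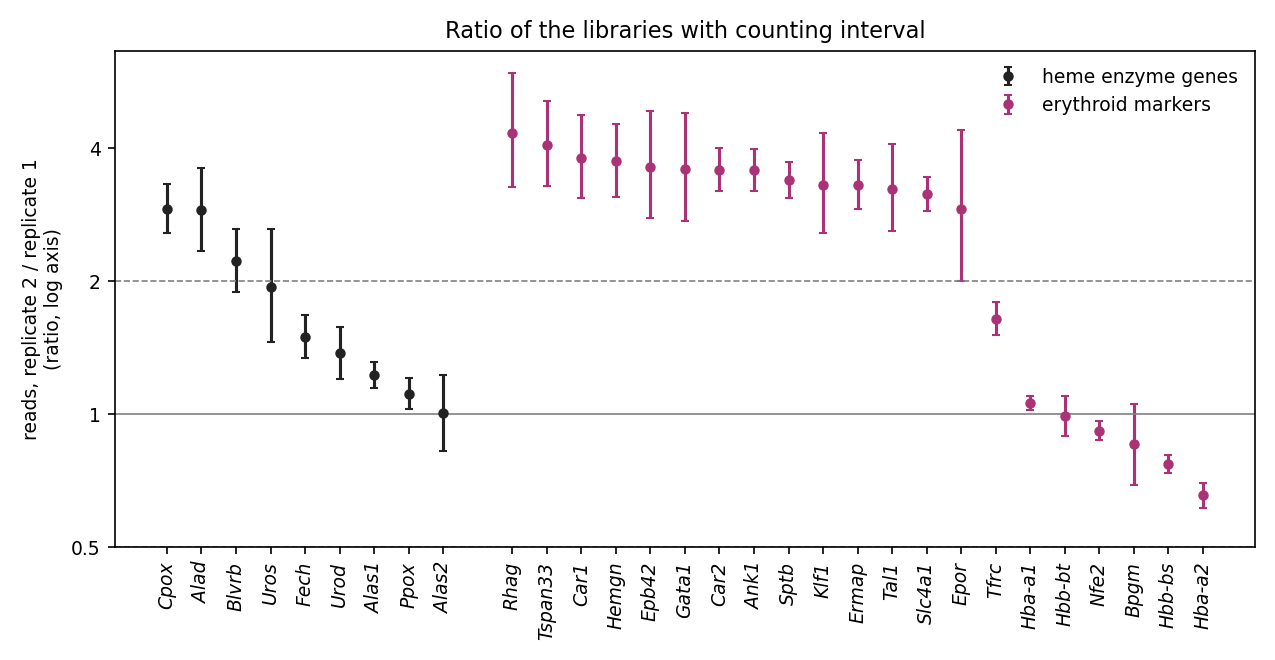
Reads in replicate 2 over replicate 1 (ratio, log axis) for the 9 heme enzyme genes and for 21 erythroid markers, each group ordered by ratio. Bars are exact counting intervals at 95%, the solid line is equality and the dashed lines are 2-fold. Cpox, Alad and Blvrb lie above 2, Alas2 lies at 1.01, and the globin genes lie between 0.655 and 1.06.

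Many markers of red cell precursors also differed between the libraries. Of 21 erythroid markers 14 were past 2-fold higher in replicate 2, beside 1.58% of all 12434 genes, and 0 were past 2-fold lower, beside 0.692%. The ratios of those 14 ran from 2.91 for the erythropoietin receptor gene Epor to 4.34 for Rhag. The transcription factor genes Gata1 (3.59), Klf1 (3.31) and Tal1 (3.24), the anion exchanger gene Slc4a1 (3.15), Epb42 (3.63), Hemgn (3.74), Ermap (3.30), Tspan33 (4.07), Car1 (3.81), Car2 (3.57) and the skeleton genes Sptb (3.39) and Ank1 (3.57) were the others of that set. The transferrin receptor gene Tfrc was at 1.65, Nfe2 at 0.918 and Bpgm at 0.855. The globin genes Hba-a1, Hbb-bt, Hbb-bs and Hba-a2 were at 1.06, 0.991, 0.772 and 0.655. The list summed to 1472 TPM in replicate 1 and 1477 in replicate 2, and without the globins to 199.9 and 343 TPM, with no marker at 0 in either library. Of the sums without the globins, Nfe2 alone made up 115 and 106 TPM. Alad and Cpox thus lay beside Epor at the lower end of the markers past 2-fold, and Alas2 lay among the globins, Nfe2 and Bpgm. The part of red cell precursors in the ratios of the heme genes was not tested, and in bulk RNA a change in the number of such cells and a change in RNA per cell cannot be told apart.

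**Figure D5:**
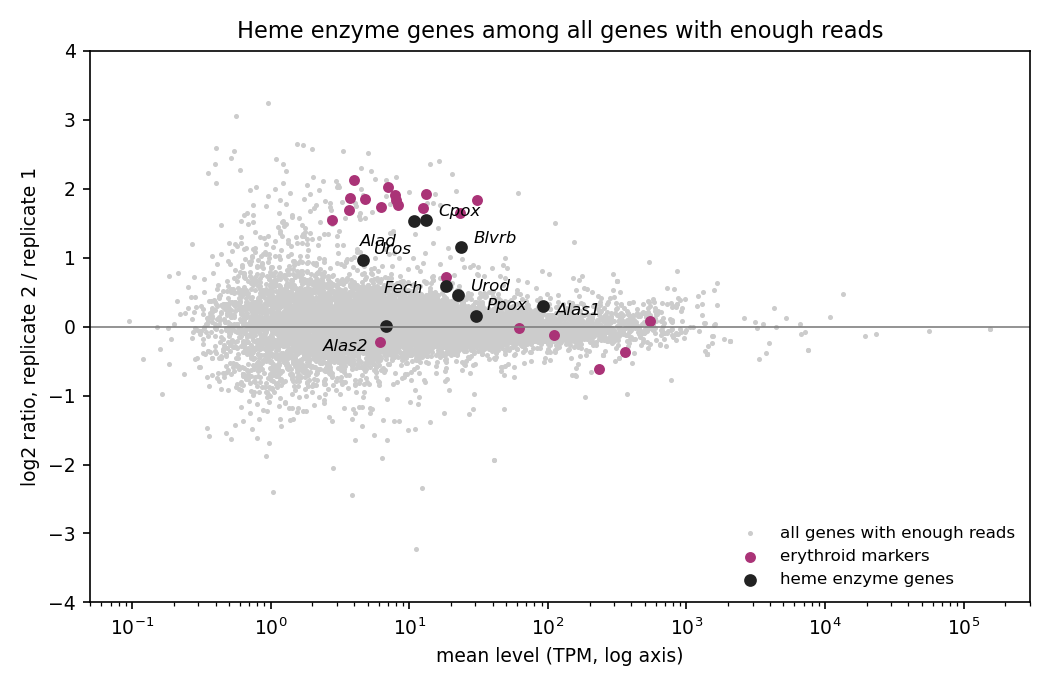
Log2 ratio of the libraries against mean level (TPM, log axis) for the 12434 genes with enough reads, with the 9 heme enzyme genes in black and the erythroid markers in purple. The vertical axis leaves out 13 genes beyond 4 on the log2 scale. Alad, Cpox and Blvrb lie above the main cloud, and Alas1, Ppox and Alas2 lie in it or at its edge.

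Markers of other cells differed in other ways. The 5 B cell markers were lower in replicate 2, with ratios from 0.418 to 0.623, at summed levels of 31.8 and 18.6 TPM. Of these, 4 were past 2-fold lower, beside 0.692% of all 12434 genes. Monocyte markers had ratios from 0.863 to 0.953 and summed to 1932 and 1723 TPM. Of 8 markers of red pulp macrophages, the spleen cells that clear old red cells and break down their heme, 4 had enough reads, with ratios from 0.601 for Cd163 to 1.13 for Vcam1, and the list summed to 90.1 and 85.4 TPM. The 3 eosinophil markers summed to 67.4 and 46.6 TPM, the 3 megakaryocyte markers to 13.9 and 12.7, and the 3 T cell markers to 2.19 and 0.63, with no T cell marker at enough reads. The defining macrophage factor gene Spic stood at 0.36 and 0.30 TPM. None of these lists was past 2-fold higher in replicate 2 for any gene with enough reads, and their part in the levels of the heme genes was not tested.

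Promoter sequence came from RefSeq (build GRCm38.p6, which is mm10), 250 bases before to 50 after the start. It was used for 8 of the 9 genes, all but Fech, in 12 windows. All windows of the genes past 2-fold are shown, with that of Alas2, which was level, to set them side by side. Each runs 5′ to 3′ on the gene's strand, and capitals mark matches on either strand to AGATAA or TGATAA (the GATA factor motif), CCACACCC (a CACCC box), GGGCGG (a GC box), CCAAT and TATAAA. Overlapping or adjoining matches merge into a single run. The core of the motif of the factor NRF1, spelled TGCGCA, was searched and marked in the same way.

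Alad upstream start chr4:62520014-62520313 minus: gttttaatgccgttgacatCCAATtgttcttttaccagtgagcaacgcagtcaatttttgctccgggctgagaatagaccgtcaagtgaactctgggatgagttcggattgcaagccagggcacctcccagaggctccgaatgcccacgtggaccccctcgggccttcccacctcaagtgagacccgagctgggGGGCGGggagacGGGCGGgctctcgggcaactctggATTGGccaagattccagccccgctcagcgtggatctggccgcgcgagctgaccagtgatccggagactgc
Alad downstream start chr4:62519860-62520159 minus: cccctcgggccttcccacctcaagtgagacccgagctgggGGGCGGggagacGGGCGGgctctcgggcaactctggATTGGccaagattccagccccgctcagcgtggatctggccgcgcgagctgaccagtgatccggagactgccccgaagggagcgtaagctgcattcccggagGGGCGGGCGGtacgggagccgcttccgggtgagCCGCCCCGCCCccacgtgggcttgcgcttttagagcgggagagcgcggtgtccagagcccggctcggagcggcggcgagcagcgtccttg
Cpox chr16:58669958-58670257 plus: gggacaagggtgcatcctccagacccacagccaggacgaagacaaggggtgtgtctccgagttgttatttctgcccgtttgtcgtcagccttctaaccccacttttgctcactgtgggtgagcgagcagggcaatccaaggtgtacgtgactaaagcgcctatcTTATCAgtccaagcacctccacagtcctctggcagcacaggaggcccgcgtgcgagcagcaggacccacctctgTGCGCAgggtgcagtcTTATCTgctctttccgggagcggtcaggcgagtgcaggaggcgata
Blvrb upstream start chr7:27447728-27448027 plus: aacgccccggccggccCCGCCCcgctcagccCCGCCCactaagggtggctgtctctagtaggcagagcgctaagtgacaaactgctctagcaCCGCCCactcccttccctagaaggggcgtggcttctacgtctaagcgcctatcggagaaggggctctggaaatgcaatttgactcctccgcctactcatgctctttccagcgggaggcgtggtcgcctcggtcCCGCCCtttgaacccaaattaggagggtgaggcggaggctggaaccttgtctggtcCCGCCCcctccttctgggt
Blvrb downstream start chr7:27452168-27452467 plus: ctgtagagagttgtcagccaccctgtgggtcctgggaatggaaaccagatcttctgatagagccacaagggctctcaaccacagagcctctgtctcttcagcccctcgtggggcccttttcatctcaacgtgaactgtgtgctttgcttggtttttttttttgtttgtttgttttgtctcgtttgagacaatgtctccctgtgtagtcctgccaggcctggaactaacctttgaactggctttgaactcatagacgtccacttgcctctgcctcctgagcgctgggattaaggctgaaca
Alas2 chrX:150547167-150547466 plus: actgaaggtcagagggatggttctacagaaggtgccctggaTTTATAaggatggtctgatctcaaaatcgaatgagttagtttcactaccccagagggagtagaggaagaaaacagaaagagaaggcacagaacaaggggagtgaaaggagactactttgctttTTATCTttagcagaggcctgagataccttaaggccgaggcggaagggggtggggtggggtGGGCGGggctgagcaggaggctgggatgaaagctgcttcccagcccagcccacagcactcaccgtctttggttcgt

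The genes past 2-fold did not share one promoter type. The windows of the Alad starts overlap each other. The upstream RefSeq start, at 62520063, lies outside the M21 span of Alad given above, which ends at 62519918. The downstream one was 71.3% G or C with 33 CG pairs and held 6 GC boxes, some overlapping, and 1 CCAAT, and the upstream one was 60.0% G or C with 19 CG pairs and held 2 GC boxes and 2 CCAAT. The upstream Blvrb window held 5 GC boxes and the downstream one held 0 matches to any motif searched, with 5 CG pairs. Positions count from the RefSeq start of the window as 0. The Cpox window held 2 GATA matches, at -86 to -81 and 4 to 9, with 1 TGCGCA match at -12 to -7 and 0 GC boxes. The Alas2 window, although that gene was level, held 1 GATA match at -86 to -81, with 1 GC box and 1 TATAAA match at -209 to -204. The RefSeq starts differ from the M21 gene starts, at 58670208 against 58670292 for Cpox and 150547417 against 150547375 for Alas2. Nothing is therefore read from the equal GATA positions. A GATA match was present in 18.6% of all 32851 RefSeq windows, a GC box in 35.7%, CCAAT in 37.4%, TATAAA in 13.6%, TGCGCA in 7.76% and CCACACCC in 3.56%. Among the other genes, 1 of the 2 Uros windows held a GATA match, and those of Alas1, Ppox and Urod held 0. These matches describe the letters and show no binding.

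Of the rest of the pathway, 2 genes were past 2-fold and both were carriers. The list of other heme pathway and carrier genes held 32 names, of which 31 matched and 30 had enough reads. Over all 12434 genes with enough reads, 2.28% were past 2-fold in either direction. Abcb10, a mitochondrial inner membrane transporter that supports heme synthesis in red cell precursors, had 370.0 and 748 reads (ratio 2.07, interval 1.83 to 2.35), and the porphyrin transporter gene Abcb6 had 106 and 225 reads (2.17, interval 1.72 to 2.77). The remaining 28 were within 2-fold, 0 being past 2-fold lower, and the list's median log2 ratio was 0.12. The highest of the list were Tspo, an outer mitochondrial membrane protein, at 112 and 107 TPM, Tmem14c, which helps porphyrin into the mitochondrion, at 38.4 and 49.5 TPM, the heme-sensing repressor gene Bach1 at 40.6 and 40.0 TPM, the iron-sulfur scaffold gene Iscu at 41.6 and 36.2 TPM, and Slc25a37, the iron importer mitoferrin of the inner mitochondrial membrane, at 23.3 and 29.7 TPM. Their ratios were 0.951, 1.28, 1.00, 0.854 and 1.14. Of the breakdown genes, the heme oxygenase genes Hmox1 and Hmox2 had ratios of 0.903 and 0.857 and Blvra one of 1.26, against 2.22 for Blvrb. These 3 breakdown genes were picked for mention after their values were seen.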

How the data were processed

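The authors deposited, per library, a gene table and a transcript table with an expected count, a TPM, a posterior mean TPM and credibility bounds, estimated from alignments to mm10 with annotation M21, per the file headers and the deposited file lists. The deposited transcript table also gives the percent of a gene's TPM that each transcript takes. The second transcript table, which the authors derived from reads without those alignments per the deposited file lists, has its own estimated count and TPM. Aligner, estimators, their versions and the level of the bounds: not given in the sources used here. All 9 genes had whole expected counts (within 1e-06), which were used as counts. The steps run here were sums, ratios and exact intervals in Python 3.11.15 (numpy 2.4.6, pandas 2.3.3, scipy 1.17.1, matplotlib 3.10.9), tested on simulated data. Offsets were 18060581 and 17609100 reads, the sums over annotated genes other than ribosomal RNA genes. edgeR 4.0.16 (TMM) and DESeq2 1.42.0 in R 4.3.3 gave alternative offsets only. With 1 group of 2 libraries, no p-value was computed. All members are named. Of the companion lists the text names every gene past 2-fold and the 5 highest, and all erythroid markers. Other genes named with values (Hmox1, Hmox2, Blvra, Spic, Cd163, Vcam1, Slc40a1, Adgre1, C1qa, C1qb, C1qc, Apex2, B4galt3, Bccip) were chosen after their values were seen. Members and lists were chosen with earlier results of these data known. TPM shares a fixed total with abundant noncoding RNA: protein-coding genes held 46.7% and 46.8% of it. Any effect of CAST Eij alleles on alignment to mm10 was not tested. Some listed genes are not reported here, and the lists were counted without them.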

Additional observations from a re-analysis of the deposited data

How the results depend on the processing

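The count of 3 genes past 2-fold was the same under TMM factors, DESeq2 size factors, ERCC offsets, the second transcript table, deposited TPM, posterior mean counts, no pseudocount and no minimum count. The count past 1.5-fold was 4 and became 5 with TMM factors, where Fech was at 1.504. The median log2 ratio ranged from 0.41 with deposited TPM to 0.59 with TMM factors. ERCC offsets moved the median of all genes to -0.08. Of single genes, Ppox reversed with deposited TPM, at a ratio of 0.945, which goes with an effective length of 1874 bases in replicate 1 and 2230.2 in replicate 2. The Alas2 share of the summed TPM of Alas1 and Alas2 averaged 6.80%, and was 7.34% by posterior mean TPM and 10.9% by reads. The log2 excess of Blvrb over the synthesis genes averaged 0.50 against their median and reversed to -0.19 against their mean, which Alas1 raises. Rescaling TPM to protein-coding genes raised all 9 levels, to between 9.84 TPM for Uros and 197 TPM for Alas1, by construction. All 9 genes reached 1 TPM in each setting tried, and 8 reached 5 TPM in both libraries. No paired analysis was possible because there is only 1 group. At these depths Uros, with 72 and 137 reads, is the least precise.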

Other observations

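A further list held 19 genes of heme proteins and of subunits or partners of heme enzymes, among them Cox4i1, Uqcrb and Cyb5r3, whose own products bind no heme. Of these 17 had enough reads and 0 were past 2-fold in either direction, beside 2.28% of all 12434 genes, so the count is near that of genes at large. The list's median log2 ratio was 0.03. The highest were Cybb and Cyba, which encode the cytochrome subunits of the NADPH oxidase, at 539 and 514 TPM and at 365 and 366 TPM, with ratios of 0.990 and 0.992. Mpo, the myeloperoxidase gene of primary granules, was at 362 and 460.3 TPM, with a ratio of 1.29 (counting interval 1.26 to 1.32). The cytochrome c oxidase subunit gene Cox4i1 was at 188 and 198 TPM (ratio 1.08) and the cytochrome P450 gene Cyp4f18 at 125 and 101 TPM (ratio 0.791). The prostaglandin synthase gene Ptgs2, named after its values were seen, was the lowest of the 17 at 0.527, and Nos2 had 0 reads in both libraries.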
